A study of Mus musculus with 4 samples.

Results

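Solute carriers are membrane proteins that move amino acids, sugars, ions, metals, nucleotides, vitamins and metabolites across the plasma membrane or the membranes of organelles. Some are driven by the sodium gradient that the sodium pump maintains, some exchange one solute for another, and most of family 25 links the cytosol with the mitochondrial matrix. In the epidermis they supply dividing basal keratinocytes with nutrients, and members such as the fatty acid transport protein Slc27a4 are known for their part in the skin barrier. The genes described here are those whose array annotation symbol starts with Slc and a number, except Slc2a1 and Slc16a3. They were chosen by symbol and by their measured level. Where several probe sets name a gene and no other gene, the one with the highest mean over the arrays was taken, and its intensity had to reach 20, close to the median of the table, on at least 1 of the 4 arrays. Of 260 such genes on the array, 136 reached that level and 124 did not, out of 7468 named genes of the whole array that reached it. Not every member is itself a carrier: Slc3a2 encodes a heavy chain that brings family 7 carriers to the cell surface, Slc9a3r1 and Slc9a3r2 encode scaffold proteins, and Slc4a1ap encodes an adaptor.

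The cells were primary keratinocytes from the tail skin of C57BL/6 mice with a floxed Prdm1 gene, in serum-free medium. Prdm1 encodes the transcriptional repressor Blimp-1, and a floxed gene is flanked by sites at which Cre recombinase can cut. CKO cells carried CreER, a Cre that acts once 4-hydroxytamoxifen (4OHT) binds it, and control cells lacked CreER. Both kinds of cell carried the floxed gene and received 4OHT or, as solvent, ethanol (EtOH) between day 1 and day 3, and all were collected on day 5. The 4 groups were therefore CKO 4OHT (CreER and inducer), CKO EtOH (CreER, solvent), control 4OHT (inducer without CreER) and control EtOH (neither). The sources used here do not name the promoter that drives CreER, the ages of the mice or the number of mice behind each culture, and the genotypes came from different mice. Each group had 1 array, so there was no replicate check, no difference could be tested, and their number limits the precision of every value. Levels are linear RMA intensities, differences are log2 differences of 2 arrays, and "higher" or "lower" in a count means at least 2-fold, which is 1 on the log2 scale. In such bulk samples fewer cells of a type and less RNA per cell cannot be told apart.

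The arrays were alike, with medians between 19.95 and 20.22 and pairwise Pearson correlations of 0.986 to 0.995 (log2 scale, all probe sets). Prdm1, the targeted gene, had an intensity of 6.43 in CKO 4OHT, 16.96 in CKO EtOH, 52.4 in control 4OHT and 20.7 in control EtOH. Of 9 keratinocyte markers 8 were on the array, all 8 reached the level, and their summed intensity was between 13003 and 13719 on the 4 arrays. Krt1, a keratin of maturing suprabasal cells, was at 21.8 in CKO 4OHT, 205 in CKO EtOH, 246 in control 4OHT and 136 in control EtOH. In CKO 4OHT it differed by -3.23 against CKO EtOH and by -3.50 against control 4OHT. Krt10, another keratin among these markers, differed by only -0.40 and -0.50 in the same comparisons. For Krt10 control EtOH was the lowest array, not CKO 4OHT, so the low value of Krt1 was not shared. Of 6 melanocyte markers on the array 4 reached the level. The summed intensity of all 6 was 146 in CKO 4OHT, 119 in CKO EtOH, 129 in control 4OHT and 126 in control EtOH. Among 6 fibroblast and 6 immune markers 1 each reached it, and none of the endothelial, muscle, adipocyte or nerve markers did. The part of differing keratinocyte maturity in the results below was not tested.

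Most solute carrier genes were steady. The highest over the lowest of the 4 arrays was a median of 1.29-fold for the 136 members and 1.30-fold for all 7468 genes, and 107 members (78.7%) stayed under 1.5-fold, as did 76.8% of all genes. The highest array was at least 2-fold above the lowest for 8 members, against 6.11% of all genes: Slc1a1, Slc20a1, Slc6a14, Slc15a3, Slc28a3, Slc5a1, Slc40a1 and Slc35a1. None of the 136 lay at least 2-fold above or below every other array in CKO 4OHT, where 0.750% of all genes lay above and 1.08% below. The level filter bears on this count, since 116 members reached 20 on all 4 arrays, 5 on 3 arrays, 7 on 2 and 8 on 1. Slc28a3 and Slc40a1 are among the 8 that passed on a single array, and a member that passes in this way had to be higher there. Slc45a3, Slc25a47 and Slc25a26 lay just inside the level, with highest values of 20.1, 20.3 and 20.3, and Slc37a1, Slc38a3 and Slc2a3 lay just outside it, with highest values of 19.8, 19.7 and 19.3.

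**Figure D1:**
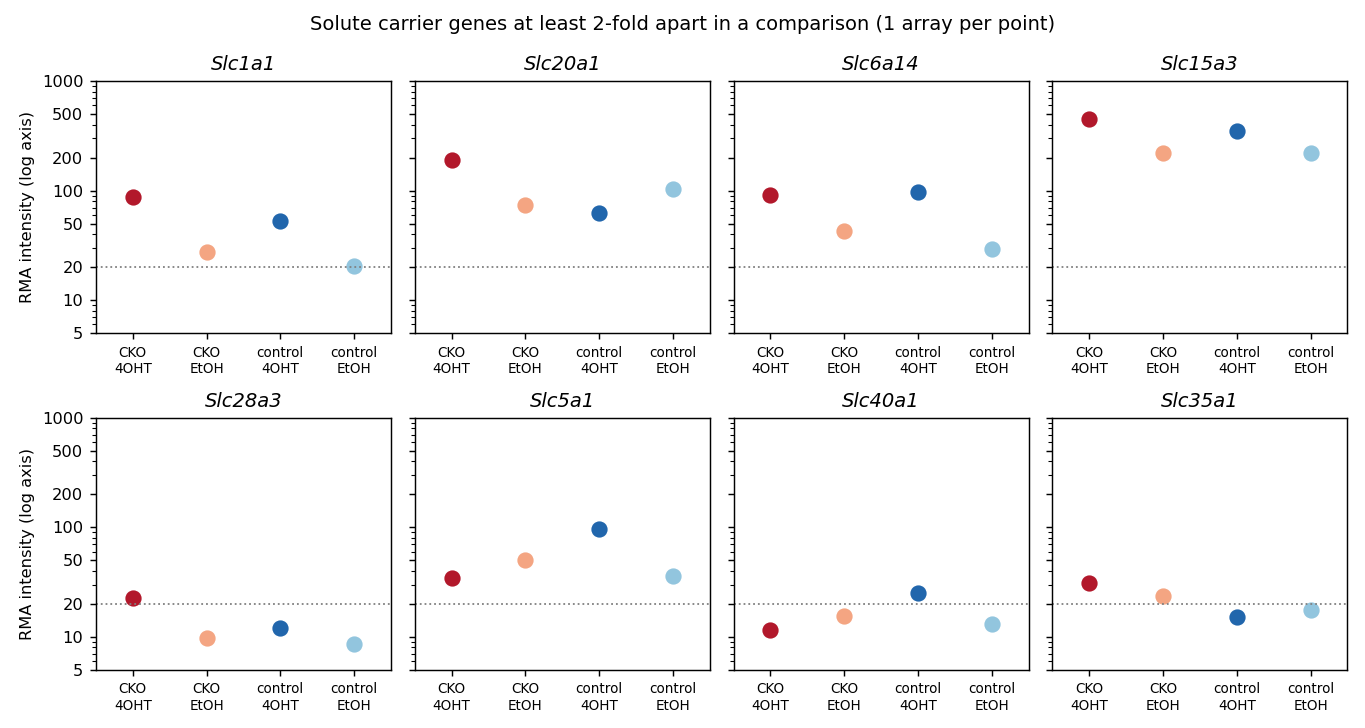
RMA intensity (log axis) of the 8 members with a highest array at least 2-fold above the lowest, 1 point per array and the dotted line at the level of 20. Slc20a1, Slc28a3 and Slc35a1 are highest in CKO 4OHT, Slc5a1 and Slc40a1 in control 4OHT, and Slc1a1, Slc6a14 and Slc15a3 are higher on both 4OHT arrays than on both EtOH arrays.

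Inducer and solvent were first compared in the cells that carry CreER. CKO 4OHT had 5 members higher than CKO EtOH (3.68% of members, against 1.82% of all genes) and 0 lower (against 1.86% of all genes). The 5 were Slc1a1, Slc20a1, Slc28a3, Slc6a14 and Slc15a3, which carry amino acids, phosphate, nucleosides and peptides. The median difference of the members was 0.07, beside 0.01 for all genes.

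Slc1a1 encodes a sodium-coupled carrier of glutamate, aspartate and cysteine. Its intensity was 87.6 in CKO 4OHT, 27.3 in CKO EtOH, 52.4 in control 4OHT and 20.5 in control EtOH, so both 4OHT arrays lay above both EtOH arrays. That is 3.22-fold (1.68) with 4OHT in CKO cells and 2.56-fold (1.36) with 4OHT in control cells. Its 2 further probe sets differed by 1.40 and 1.47 between CKO 4OHT and CKO EtOH, and by 1.65 and 1.30 between control 4OHT and control EtOH. Between CKO 4OHT and control 4OHT the main probe set differed by 0.74 and the others by 0.02 and 0.10, so the probe sets share the difference between drug and solvent but not one between the genotypes under the drug. With 16 added before the log, the difference in control cells was under 2-fold (0.91) and that in CKO cells was not (1.26).

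Slc6a14 encodes a sodium- and chloride-coupled carrier of neutral and cationic amino acids. It had an intensity of 91.3 in CKO 4OHT, 42.6 in CKO EtOH, 96.8 in control 4OHT and 29.4 in control EtOH. The drug arrays again lay above the solvent arrays in both genotypes, by 1.10 in CKO cells and by 1.72 in control cells, and CKO 4OHT differed from control 4OHT by -0.09. A second probe set was under 10 on every array and differed by 0.41 in CKO cells and 0.72 in control cells. The difference in CKO cells was under 2-fold with the median of both probe sets (0.76) and with 16 added before the log (0.87), while that in control cells stayed past it (1.22 and 1.31).

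Slc15a3, a lysosomal carrier of histidine and small peptides, was also higher on both 4OHT arrays than on both EtOH arrays. It was at 453 in CKO 4OHT, 222 in CKO EtOH, 349 in control 4OHT and 218 in control EtOH. The difference between drug and solvent was 1.03 in CKO cells and 0.68 in control cells. The difference in CKO cells lies on the 2-fold line, and it was 0.999 after quantile normalization and 0.98 with 16 added before the log. CKO 4OHT was the highest array, 1.30-fold above control 4OHT, the next one.

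**Figure D2:**
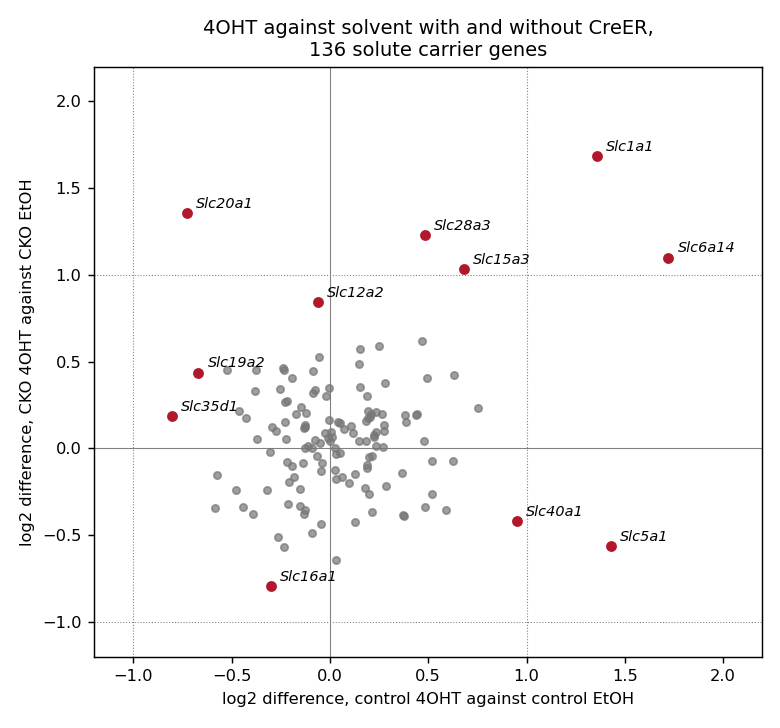
Log2 difference of 4OHT against EtOH in CKO cells (vertical axis) and in control cells (horizontal axis) for 136 members, 1 point per gene, with dotted lines at 2-fold. Slc1a1 and Slc6a14 are past 2-fold on both axes, Slc20a1 is at 1.36 and -0.73, and Slc5a1 at -0.56 and 1.43.

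Slc20a1 encodes a sodium-coupled phosphate importer of the plasma membrane. Its intensity was 190 in CKO 4OHT, 74.2 in CKO EtOH, 63.0 in control 4OHT and 104 in control EtOH. CKO 4OHT was the highest array, 1.82-fold above control EtOH, the next one. It lay 2.56-fold (1.36) above CKO EtOH and 3.02-fold (1.59) above control 4OHT, while control 4OHT differed from control EtOH by -0.73. The other probe set of this gene was under 5 on every array and differed by 0.22 between CKO 4OHT and CKO EtOH, so these differences rest on 1 probe set. Slc20a2, the related phosphate importer, was at 79.3 in CKO 4OHT, 57.5 in CKO EtOH, 59.8 in control 4OHT and 70.7 in control EtOH. CKO 4OHT was its highest array by this probe set, with a difference of 0.46 against CKO EtOH. Another probe set of Slc20a2 was highest in control 4OHT, at 59.8 there and 42.5 in CKO 4OHT. It differed by -0.13 against CKO EtOH, so the order of the arrays was not shared between probe sets.

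Slc28a3, a sodium-coupled nucleoside importer, reached the level on 1 array alone. It was at 22.6 in CKO 4OHT, 9.66 in CKO EtOH, 12.1 in control 4OHT and 8.63 in control EtOH. The difference was 1.23 against CKO EtOH and 0.91 against control 4OHT, and 0.75 and 0.51 by a second probe set, whose highest value was 15.2. The 25th percentile of the arrays lay between 7.11 and 7.48, so the values outside CKO 4OHT are close to dim signal and the fold is imprecise. With 16 added before the log, the difference against CKO EtOH became 0.59.

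Below the 2-fold line, Slc12a2, the sodium-potassium-chloride cotransporter that loads cells with chloride, differed by 0.84 between CKO 4OHT and CKO EtOH. It was at 135 in CKO 4OHT, 75.4 in CKO EtOH, 90.7 in control 4OHT and 94.6 in control EtOH. CKO 4OHT was the highest array by all 3 of its probe sets, but the others reached only 10.9 and 17.9, under the level. Slc27a4, the fatty acid transport protein, differed by 0.62, and it was higher on both 4OHT arrays, with 83.0 in CKO 4OHT, 54.2 in CKO EtOH, 77.6 in control 4OHT and 56.1 in control EtOH. Slc8b1, the sodium-calcium exchanger of mitochondria, differed by 0.59.

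At the other end no member was lower by 2-fold. Slc16a1, a proton-coupled carrier of lactate and other monocarboxylates, had the lowest difference, -0.79, with 83.2 in CKO 4OHT, 144 in CKO EtOH, 117 in control 4OHT and 145 in control EtOH. CKO 4OHT was its lowest array, and its differences of -0.50 against control 4OHT and -0.30 between control 4OHT and control EtOH were also negative. The sugar carrier Slc50a1 differed by -0.64, Slc25a15, the mitochondrial ornithine carrier, by -0.57 and the glucose carrier Slc5a1 by -0.56. Next came Slc25a28, a mitochondrial iron importer (-0.51), the zinc carrier Slc39a9 (-0.49), the fructose carrier Slc2a5 (-0.44) and Slc7a6, a light chain of a cationic amino acid exchanger (-0.42).

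**Figure D3:**
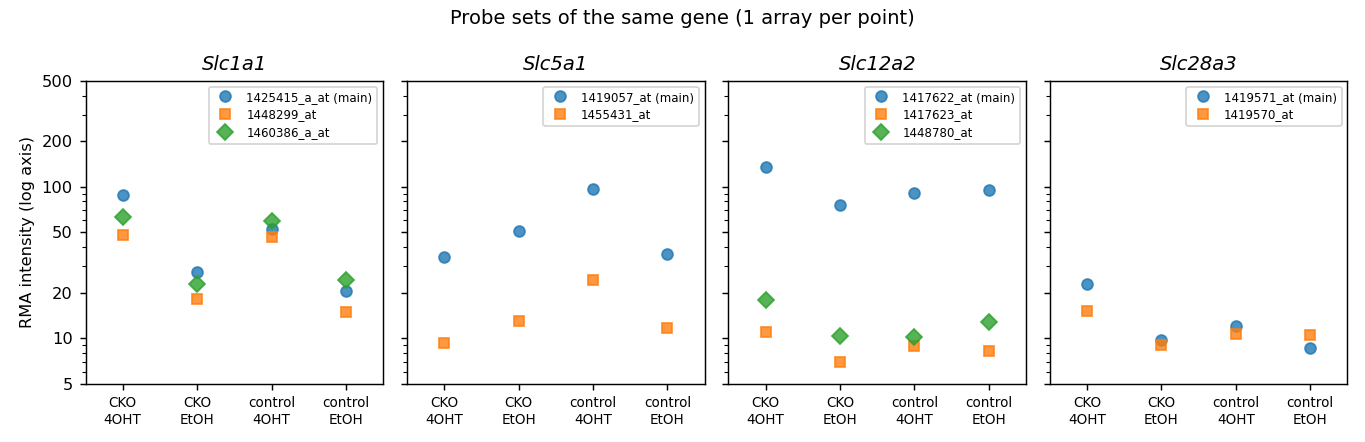
RMA intensity (log axis) of every probe set naming Slc1a1, Slc5a1, Slc12a2 or Slc28a3 alone, 1 point per array. The probe sets of Slc1a1 are all higher on both 4OHT arrays, both of Slc5a1 are highest in control 4OHT, and those of Slc12a2 and Slc28a3 are highest in CKO 4OHT.

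Cells with and without CreER were then compared under the drug. CKO 4OHT had 2 members higher than control 4OHT (against 1.46% of all genes), Slc20a1 and Slc35a1, and 2 lower (against 2.24% of all genes), Slc5a1 and Slc40a1. Each count is 1.47% of the members. Their median difference was 0.00, beside 0.01 for all genes. This comparison shares the CKO 4OHT array with the previous one, so the values of both are not separate evidence.

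Slc5a1 encodes the sodium-glucose cotransporter best known from the intestine. Its intensity was 34.3 in CKO 4OHT, 50.7 in CKO EtOH, 96.7 in control 4OHT and 35.9 in control EtOH. Control 4OHT stood above the other arrays, 1.91-fold over CKO EtOH, the next one, and CKO 4OHT was lower than control 4OHT by 2.82 times (-1.50). Another probe set gave -1.38 for the same comparison, at 9.31 in CKO 4OHT and 24.2 in control 4OHT.

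Slc40a1 encodes ferroportin, the iron exporter of the cell surface. It was at 11.5 in CKO 4OHT, 15.4 in CKO EtOH, 25.05 in control 4OHT and 12.9 in control EtOH, again highest in control 4OHT, and it reached the level on that array alone. The difference between CKO 4OHT and control 4OHT was -1.12, and -0.36 by a second probe set, which reached no higher than 18.7. On the side of iron import, the transferrin receptor gene Tfrc, not a solute carrier, was at 226 in CKO 4OHT, 73.7 in CKO EtOH, 69.7 in control 4OHT and 112 in control EtOH, the same order of arrays as for Slc20a1. Slc11a2, the proton-coupled importer of ferrous iron, was between 62.4 and 75.5 on the 4 arrays.

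Slc35a1, the carrier that brings CMP-sialic acid into the Golgi, differed by 1.03 between CKO 4OHT and control 4OHT. It was at 31.3 in CKO 4OHT, 23.6 in CKO EtOH, 15.3 in control 4OHT and 17.5 in control EtOH, so both CKO arrays lay above both control arrays, with differences of 0.40 between CKO 4OHT and CKO EtOH and 0.43 between CKO EtOH and control EtOH. The genotypes came from different mice, and an effect of CreER and a difference between animals cannot be told apart. A second, dimmer probe set differed by 0.60 between CKO 4OHT and control 4OHT and had 11.5 in both CKO EtOH and control EtOH, so the order of the genotypes under the solvent was not shared between probe sets.

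Beside Slc28a3 and Slc1a1, other members at the upper end of this comparison stayed under 2-fold. They were the zinc carrier Slc30a6 (0.88, with 156 in CKO 4OHT against 84.96 in control 4OHT), the mitochondrial iron importer Slc25a37 (0.70), the thiamine carrier Slc19a2 and Slc12a2 (both 0.58). At the lower end were the choline carriers Slc44a2 (-0.89, with 204 in CKO 4OHT against 377 in control 4OHT) and Slc44a1 (-0.65, with 157 in CKO 4OHT against 247 in control 4OHT), the glucose carriers Slc2a4 (-0.74) and Slc2a8 (-0.59), Slc25a45 (-0.55) and Slc7a5 (-0.51), the light chain of the large neutral amino acid exchanger. For both choline carriers control 4OHT was the highest array and CKO 4OHT the lowest by these probe sets. A second probe set of Slc44a1 kept this order (-0.68). Further probe sets of Slc44a2 were also highest in control 4OHT, but differed by -0.39 and -0.16. Their lowest arrays were control EtOH (54.5) and CKO EtOH (20.8). Slc2a4 reached the level in control 4OHT alone and had to be higher there. A second probe set of Slc2a4 differed by -0.27 and was highest in CKO EtOH, at 14.5.

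Control cells, which lack CreER, were compared with and without the drug. Control 4OHT had 3 members higher than control EtOH (2.21% of members, against 1.27% of all genes) and 0 lower (against 0.241% of all genes), with a median of 0.02 beside -0.04 for all genes. The 3 were Slc6a14 (1.72), Slc5a1 (1.43) and Slc1a1 (1.36), all of them sodium-coupled importers of amino acids or glucose. Slc40a1 followed at 0.95. The lowest differences were those of Slc35d1, a carrier of UDP-sugars (-0.80), Slc20a1 (-0.73), Slc19a2 (-0.67) and Slc1a4, a carrier of neutral amino acids (-0.59), whose 2 other probe sets had the opposite sign for this comparison (both 0.07).

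Among these 3, the CKO cells followed the control cells for Slc1a1 and Slc6a14 and not for Slc5a1, whose drug difference was -0.56 in CKO cells and 1.43 in control cells. The 2 drug comparisons share no array. The drug effect in CKO cells minus that in control cells was at least 2-fold upward for 2 members, Slc20a1 and Slc19a2 (against 2.80% of all genes), and downward for 2, Slc5a1 and Slc40a1 (against 2.89%). Over all members, 43 were above 0 in both and 25 below 0 in both. Another 40 were above 0 in CKO cells and below 0 in control cells, and 27 the other way round. In the same order, the counts for all 7468 genes were 1705, 2106, 2120 and 1520. Pearson's r over the 136 members was 0.17 and Spearman's rho 0.05, and over all 7468 genes they were 0.03 and 0.04. These describe genes on 4 arrays that share their processing, and genes are not independent replicates.

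CKO EtOH against control EtOH, the genotypes without the inducer, had 0 members higher and 0 lower, where 0.0536% of all genes were higher and 0% lower. The 4 lowest differences were those of Slc35d1 (-0.60), Slc1a4 (-0.59), Slc19a2 (-0.53) and Slc20a1 (-0.49), and the 4 highest those of Slc6a14 (0.54), Slc5a1 (0.50), Slc22a5, the carnitine importer (0.46), and Slc35a1 (0.43). Second probe sets gave the opposite sign for Slc19a2 (0.15) and Slc22a5 (-0.03), and 0 for Slc35a1. They kept the sign for Slc20a1 (-0.04), Slc5a1 (0.16) and Slc6a14 (0.31). Slc35d1 was at 33.1 in CKO 4OHT, 29.1 in CKO EtOH, 25.2 in control 4OHT and 44.1 in control EtOH. Control EtOH was its highest array. Slc1a4 was at 29.5 in CKO 4OHT, 37.4 in CKO EtOH, 37.6 in control 4OHT and 56.4 in control EtOH, but its further probe sets differed by -0.02 and 0.15 between CKO EtOH and control EtOH, so that difference was not shared between probe sets.

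A lower line of 1.5-fold took in more members in each comparison. Against CKO EtOH, CKO 4OHT then had 8 members higher and 2 lower (5.72% and 5.49% of all genes), and against control 4OHT 6 higher and 6 lower (6.70% and 6.08% of all genes). Control 4OHT had 9 higher and 4 lower than control EtOH (3.95% and 3.91% of all genes), and CKO EtOH had 0 higher and 2 lower than control EtOH (0.589% and 0.777% of all genes). In CKO 4OHT 3 members (Slc1a1, Slc20a1 and Slc28a3) lay 1.5-fold above every other array and 0 below, against 2.50% and 3.21% of all genes. Of these 3, Slc28a3 reached the level on that array alone and had to be highest there. The further probe sets of Slc1a1 differed by only 0.02 and 0.10 between CKO 4OHT and control 4OHT.

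By substrate class, 8 of 12 classes had at least 5 members. The sugar and sodium-coupled solute class comprised families 2, 5, 45 and 50. Against CKO EtOH, 7 of its 8 members were below 0 in CKO 4OHT with a median of -0.37, and against control 4OHT all 8 were below 0 with a median of -0.37. In control 4OHT against control EtOH, 7 of 8 were above 0 with a median of 0.30. Over all 7468 genes, 3631 were below 0 in CKO 4OHT against CKO EtOH and 3574 against control 4OHT. In control 4OHT against control EtOH 3228 of all genes were above 0. The class counts are a description only. Slc2a4 and Slc45a3 reached the level in control 4OHT alone and had to be higher there, and Slc2a5 and Slc5a5 were near the level. Only Slc5a1 was past 2-fold, the fructose carrier Slc2a5 and the glucose carriers Slc2a4 and Slc2a8 were between 13.3 and 48.7 on the 4 arrays, and without the level filter the median was 0.00 in the comparison with CKO EtOH and -0.19 in that with control 4OHT.

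Family 35, which includes carriers of nucleotide sugars from the cytosol into the Golgi and endoplasmic reticulum, had more differences above 0. Of its 15 members 13 were above 0, 1 below and 1 at 0 in CKO 4OHT against CKO EtOH (median 0.19). Against control 4OHT 13 were above 0 (median 0.26). Over all 7468 genes, 3829 and 3883 were above 0 in these comparisons. Slc35b1, which brings ATP into the endoplasmic reticulum, was at 258 in CKO 4OHT, 205 in CKO EtOH, 179 in control 4OHT and 234 in control EtOH, and Slc35a4 was between 98.6 and 119. These shifts are small, Slc35a1 was the one member past 2-fold, and Slc35a1 and Slc35a3 reached the level on the CKO arrays alone.

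Mitochondrial carriers of family 25 were the largest class, with 29 members, 0 past 2-fold in any comparison and medians of 0.04, -0.01, 0.03 and -0.02 in the 4 comparisons. Slc25a3, the mitochondrial phosphate carrier, was between 2023 and 2279, and the ADP/ATP carriers Slc25a5 and Slc25a4 were between 1541 and 1681 and between 458 and 550. Slc25a39, which brings glutathione into mitochondria, was at 1300 in CKO 4OHT, 1690 in CKO EtOH, 1369 in control 4OHT and 1500 in control EtOH, and Slc25a51, the mitochondrial NAD carrier, was between 261 and 305.

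The amino acid class had 20 members with medians of -0.08 against CKO EtOH and -0.12 against control 4OHT. Slc1a1 and Slc6a14 were at 1.68 and 1.10 against CKO EtOH, while against control 4OHT Slc6a14, at -0.09, was close to the class median. Slc3a2, the shared heavy chain, was between 780 and 908 on the 4 arrays. Slc7a5, its partner for large neutral amino acids, was at 201 in CKO 4OHT, 257 in CKO EtOH, 287 in control 4OHT and 313 in control EtOH, and Slc38a2, a sodium-coupled importer of small neutral amino acids, was at 695 in CKO 4OHT, 631 in CKO EtOH, 531 in control 4OHT and 581 in control EtOH. Slc7a11, the cystine importer, was between 17.3 and 24.2.

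Metal and heme carriers had 22 members with medians of 0.05 and 0.03 against CKO EtOH and control 4OHT. The zinc importer Slc39a6 was at 418 in CKO 4OHT, 526 in CKO EtOH, 489 in control 4OHT and 543 in control EtOH, while Slc39a7, which releases zinc from the endoplasmic reticulum and Golgi, was at 213 in CKO 4OHT, 169 in CKO EtOH, 151 in control 4OHT and 159 in control EtOH. The heme carrier Slc48a1 was between 180 and 193 by its main probe set. By a second it was at 162 in CKO 4OHT, 84.8 in CKO EtOH, 105 in control 4OHT and 84.6 in control EtOH. The steady level was therefore not shared between probe sets. Among 13 inorganic ion genes Slc12a2 had the widest difference and the scaffold gene Slc9a3r1 was higher on both 4OHT arrays (215 in CKO 4OHT with 160 in CKO EtOH, and 226 in control 4OHT with 146 in control EtOH). The lipid class of 7 members had medians of 0.12 and -0.12, and the steroid sulfate carrier Slc10a6 was between 271 and 369. The peptide and organic ion class of 7 had medians of 0.16 and 0.10, and Slc22a23 was at 157 in CKO 4OHT, 112 in CKO EtOH, 136 in control 4OHT and 123 in control EtOH. Of the vitamin class, the thiamine carrier Slc19a2 was at 138 in CKO 4OHT, 102 in CKO EtOH, 92.7 in control 4OHT and 147 in control EtOH. CKO EtOH and control 4OHT were its lower arrays by this probe set. By a second, the control arrays were lower, at 19.2 with 4OHT and 20.6 with EtOH. CKO EtOH and control 4OHT were also the lower arrays for the folate carrier Slc19a1. It was at 126 in CKO 4OHT, 91.6 in CKO EtOH, 93.0 in control 4OHT and 121 in control EtOH.

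**Figure D4:**
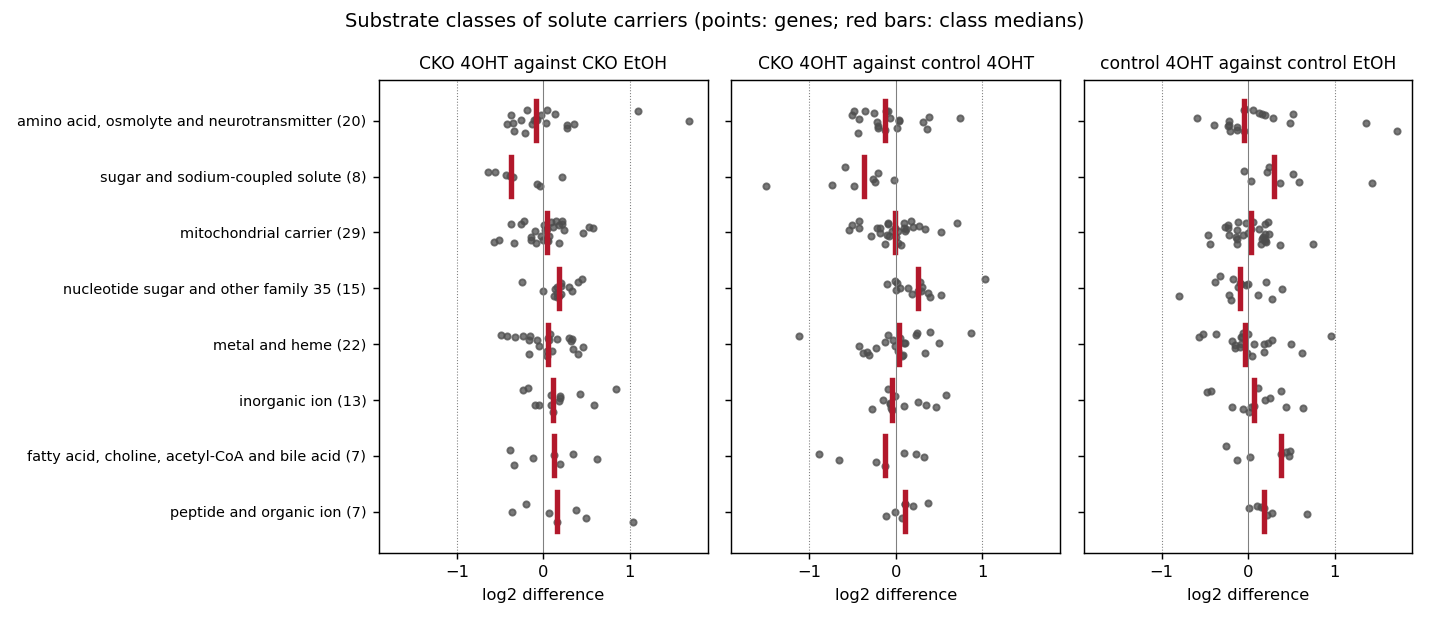
Log2 differences of the members of the 8 classes with at least 5 members (number in brackets), in 3 comparisons, 1 point per gene, with red bars at the class medians and dotted lines at 2-fold. The sugar class has medians of -0.37, -0.37 and 0.30, family 35 of 0.19, 0.26 and -0.09, and mitochondrial carriers are centred near 0.

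Genes that work with the carriers were described from a list. Of 11 amino acid response genes, 0 were past 2-fold, where at most 2.24% of all genes were past it in 1 direction of a comparison. Of these 11 genes, 10 were below 0 in CKO 4OHT against CKO EtOH, with a median of -0.52 (-0.35 against control 4OHT). In control 4OHT against control EtOH 10 were also below 0, with a median of -0.21. Over all 7468 genes, 3631 were below 0 in CKO 4OHT against CKO EtOH and 4231 in control 4OHT against control EtOH. Asns, asparagine synthetase, was at 867 in CKO 4OHT, 1305 in CKO EtOH, 1201 in control 4OHT and 1321 in control EtOH. Of 4 sodium pump and FXYD genes at the level, Fxyd6, a regulator of the pump, was lower against CKO EtOH (-1.87) and against control 4OHT (-1.89), and the pump subunit Atp1b3 differed by 0.05 and -0.22. Bsg and Emb, which bring monocarboxylate carriers to the membrane, differed by 0.39 and -0.14 against CKO EtOH. Of 6 glutathione and thioredoxin genes Hmox1 was higher against CKO EtOH (1.54), and Gclc, a subunit of the enzyme that makes glutathione from glutamate and cysteine, differed by -0.93. Of 3 polyamine genes Odc1 was higher against both (2.23 and 2.57). The 2 Slco carriers at the level, Slco2a1 and Slco3a1, differed by -0.60 and -0.65 against CKO EtOH. Of 5 metal genes Tfrc was higher against both (1.62 and 1.70), and the metallothionein genes Mt1 and Mt2 differed by -0.21 and -0.22 against CKO EtOH.

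The promoters of Slc1a1, Slc20a1, Slc6a14 and Slc5a1 are shown because Slc1a1 and Slc6a14 were past 2-fold with the drug in both genotypes by their main probe sets and Slc20a1 and Slc5a1 had the widest gaps between the drug effects. Each is 300 bases of RefSeq on GRCm38.p6, from 250 before to 50 after an annotated start, and all are on the + strand. Capitals mark matches on either strand to the AP-1 letters TGANTCA, to AGNGAAAG, a core of the element that Blimp-1 binds, and to the E-box CACGTG.
Slc1a1, chr19:28834885-28835184: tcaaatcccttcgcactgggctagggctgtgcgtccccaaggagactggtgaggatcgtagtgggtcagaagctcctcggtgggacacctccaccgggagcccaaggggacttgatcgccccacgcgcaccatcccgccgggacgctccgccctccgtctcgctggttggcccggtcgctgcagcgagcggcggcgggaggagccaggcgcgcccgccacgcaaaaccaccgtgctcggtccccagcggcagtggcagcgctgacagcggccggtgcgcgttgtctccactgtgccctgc
Slc20a1, chr2:129198523-129198822: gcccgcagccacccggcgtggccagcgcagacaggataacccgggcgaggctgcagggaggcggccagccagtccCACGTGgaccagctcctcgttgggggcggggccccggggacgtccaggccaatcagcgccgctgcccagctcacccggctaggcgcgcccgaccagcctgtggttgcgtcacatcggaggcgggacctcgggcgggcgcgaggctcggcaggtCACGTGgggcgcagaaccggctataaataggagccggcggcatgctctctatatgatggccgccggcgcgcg
Slc6a14, chrX:21714650-21714949: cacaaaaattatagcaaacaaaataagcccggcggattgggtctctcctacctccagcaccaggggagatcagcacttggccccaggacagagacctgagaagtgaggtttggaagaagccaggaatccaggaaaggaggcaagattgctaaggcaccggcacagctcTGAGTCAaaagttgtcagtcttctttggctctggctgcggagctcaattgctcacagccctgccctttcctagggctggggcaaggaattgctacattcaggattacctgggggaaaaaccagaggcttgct
Slc5a1, chr5:33103969-33104268: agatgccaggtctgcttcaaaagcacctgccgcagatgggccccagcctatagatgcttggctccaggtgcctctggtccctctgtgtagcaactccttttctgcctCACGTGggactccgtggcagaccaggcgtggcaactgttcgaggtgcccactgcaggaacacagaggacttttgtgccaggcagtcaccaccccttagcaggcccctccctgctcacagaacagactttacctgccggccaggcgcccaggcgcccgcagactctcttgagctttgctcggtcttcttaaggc

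The Slc20a1 window held the E-box letters at 2 places, starting 175 and 22 bases before the start, the Slc5a1 window held them once, 143 bases before the start, and the Slc6a14 window held the AP-1 letters once, 82 bases before the start. None of the letters were found in the Slc1a1 window, and AGNGAAAG was in none of the 4. The E-box letters were in 13.5% of 148 promoter windows of 107 members and in 7.15% of all 32851 windows, the AP-1 letters in 4.73% and 7.81%, and AGNGAAAG in 8.78% and 8.63%. Members' windows had a median GC content of 61%, against 52.7% in all windows, which also bears on how often letters occur, and a match is a description of letters, not of binding. Slc20a1 has a second annotated start, whose window held none of these letters.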

How the data were processed

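Transcripts of 4 keratinocyte cultures were read on an Affymetrix array, the Mouse Expression Array 430A, per the labels. Deposited values are linear intensities of 22626 probe sets (2.66 to 7167), made by the authors with RMA, per the submitters' processing notes, in a version that the sources used here do not name. RMA makes the arrays alike, so a shift of most transcripts would be lost, and the table holds no detection calls.

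Log2 was taken with no pseudocount (Python 3.11.15, pandas 2.3.3). Of the probe sets 20380 named 1 gene in the platform annotation, 691 several and 1555 none. All 136 members matched a current Entrez entry and 9 are read by an _s_at or _x_at probe set, which can share sequence with other genes. A gene was called at 2-fold between 2 arrays, and no test was run. Brightness differs between probes, so levels were not compared between genes. Counting steps were tested on simulated data. Members, classes and lists were chosen with earlier results of these data known. Named members were those past 2-fold, the 8 (or 4) at each end of a comparison, the brightest overall and per class and those next to the level. Others (Slc20a2, Slc11a2, Slc7a11, Slc19a1, Slc39a7 and the list genes) were chosen after their values were seen. Alternatives changed the probe set, pseudocount, level, fold and normalization.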

Additional observations from a re-analysis of the deposited data

Results flagged for a closer look

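For 4 members the difference between 4OHT and EtOH had opposite signs in CKO and control cells and the drug effects differed by at least 1 on the log2 scale. The drug effect in CKO cells minus that in control cells was 2.08 for Slc20a1 (1.36 in CKO cells and -0.73 in control cells), 1.10 for the thiamine carrier Slc19a2 (0.44 in CKO cells and -0.67 in control cells), -1.37 for Slc40a1 (-0.42 in CKO cells and 0.95 in control cells) and -1.99 for Slc5a1 (-0.56 in CKO cells and 1.43 in control cells). These differences were not tested, since each group had 1 array. For Slc20a1 a second probe set, under 5 on every array, gave 0.22 in CKO cells and 0.18 in control cells, with no opposite signs. For Slc19a2 a second probe set gave 0.15 in CKO cells and -0.10 in control cells, for Slc40a1 a second gave 0.21 in CKO cells and 0.53 in control cells, with no opposite signs, and for Slc5a1 a second gave -0.49 in CKO cells and 1.04 in control cells. Among all 7468 genes the drug effects differed by at least 2-fold upward in 2.80% and downward in 2.89%.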

How the results depend on the processing

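Members higher in CKO 4OHT against CKO EtOH numbered 5 and became 2 with the median of all probe sets, 2 with 16 added before the log, 4 after quantile normalization (without Slc15a3) and 8 at 1.5-fold, where 2 were lower in place of 0. Against control 4OHT the 2 higher and 2 lower members became 0 and 1 with the median of all probe sets, 1 and 1 with 16 added, 1 and 1 at a level of 40, and 6 and 6 at 1.5-fold. In control 4OHT against control EtOH the 3 higher members became 2 with 16 added (without Slc1a1), and 1.5-fold gave 9 higher and 4 lower. In CKO EtOH against control EtOH the 0 lower members became 1 without the level filter and 2 at 1.5-fold. Members above every other array in CKO 4OHT numbered 0 and became 3 at 1.5-fold (Slc1a1, Slc20a1 and Slc28a3), 4 when control 4OHT was left out and 1 when control EtOH was left out. Slc28a3 reached the level on the CKO 4OHT array alone, and the place of Slc1a1 rests on its main probe set. Leaving out CKO EtOH moved neither count. The cause of these changes was not tested, beyond what a lower fold or fewer arrays does by construction. With the median of all probe sets Slc20a1 differed by 0.79 and 0.80 in CKO 4OHT against CKO EtOH and control 4OHT. No called difference of a named member changed sign under any alternative. The median over all members moved by less than 0.1 under each. No paired analysis was possible because each group had 1 array and the replicate number only names it. Intensities under 20 approach dim signal on these arrays, which limits the folds of Slc28a3, Slc40a1 and Slc35a1.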

Other observations

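Of the 124 solute carrier genes under the level, few were past 2-fold, all at dim signal: Slc15a1 was higher in CKO 4OHT against CKO EtOH and in control 4OHT against control EtOH, Slc39a8 was lower in CKO 4OHT against control 4OHT, and Slc15a2 was lower in CKO EtOH against control EtOH. CKO 4OHT was the highest array for 50 members (36.8%, against 31.7% of all genes), CKO EtOH for 14 (10.3%, against 15.1%), control 4OHT for 42 (30.9%, against 23.8%) and control EtOH for 30 (22.1%, against 29.4%). The level filter bears on these counts, since the 8 members that reached 20 on 1 array alone had to be highest there. Slc25a26, Slc4a3, Slc45a3, Slc2a4, Slc40a1 and Slc25a47 reached it in control 4OHT, Slc28a3 in CKO 4OHT and Slc26a6 in control EtOH.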
